A study of Mus musculus with 20 samples.

Results

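The transcripts of 10 cytokine receptor subunits were followed in mouse germinal centre B cells that did or did not carry the L252P allele of Myd88, the adaptor of Toll-like and interleukin-1 receptors. The 10 genes were taken by symbol from a chosen list (Il21r, Il4ra, Il2rg, Il2rb, Il10ra, Il6st, Il9r, Ifngr1, Csf2rb and Csf2rb2), and all 10 were found among the 23382 gene symbols measured. RNA had been sequenced in 20 libraries, 5 in each of 4 groups. The groups were mutant centrocytes, control centrocytes, mutant centroblasts and control centroblasts. All carried the germinal centre B cell markers B220, FAS and GL7, and centrocytes were gated as CXCR4- and CD86+, centroblasts as CXCR4+ and CD86-. Mutant libraries carried Myd88L252P on 1 allele and control libraries were wild type for it. Every library, controls included, came from cells with 1 copy of Cgamma1Cre, a Cre recombinase under the C gamma 1 immunoglobulin locus that acts in B cells entering the germinal centre. Whether the 5 libraries of a group represent 5 mice was not stated, so the p-values are about the spread among libraries, which may be technical in part.

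Cytokine receptors of this kind have no enzyme of their own. Ligand brings their chains together, the Janus kinases bound to the chains phosphorylate STAT transcription factors, and SOCS proteins shut the signal off. In germinal centres, follicular helper T cells supply interleukin-21, which acts through STAT3, and interleukin-4, which acts through STAT6, and both cytokines sustain germinal centre B cells. The common gamma chain, encoded by Il2rg, completes the receptors for interleukins 2, 4, 7, 9, 15 and 21. Centroblasts are the dividing cells of the dark zone and centrocytes the cells of the light zone, where antigen and T cell help are met.

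Values were TPM, a level corrected for transcript length and expressed relative to the library total. Differences are given in log2(TPM + 1), where the added 1 makes the changes of weakly expressed genes look smaller. They were tested with limma over 11386 genes, those reaching 1 TPM in 5 or more libraries. A gene was called where its Benjamini-Hochberg adjusted p was under 0.05. B cell genes were high throughout (Cd79a 2104 TPM in mutant centrocytes, 2145 TPM in control centrocytes, 1924 TPM in mutant centroblasts and 1877 TPM in control centroblasts, on average). Mutant centroblast libraries 4 and 5 stood apart, since ribosomal protein genes took 11.16% and 15.06% of their TPM, against 6.417% to 8.807% in the other 18 libraries. They also held the fewest genes above 0 (12895 and 12719, against 13053 to 14092). Of the genes behind the gates, Cxcr4 averaged 167 TPM in mutant centrocytes, 304 TPM in control centrocytes, 396 TPM in mutant centroblasts and 575 TPM in control centroblasts, and Cd86 averaged 251, 318, 107 and 143 TPM in the same order. Myd88 itself lay between 61.8 and 96.1 TPM in all libraries, and a gene-level value cannot show a coding allele. TPM keeps no read depth, so the counting error of a value is unknown. In such bulk samples, fewer cells of a type and less RNA per cell cannot be told apart.

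The 10 genes lie on 7 chromosomes of the mouse genome (RefSeq positions, GRCm38.p6). Il4ra (chromosome 7, 125552271 to 125579474, plus strand) and Il21r (chromosome 7, 125603252 to 125634397, plus strand) are neighbours with 23777 bases between them. Csf2rb2 (chromosome 15, 78282507 to 78305721, minus strand), Csf2rb (78325800 to 78351001, plus strand) and Il2rb (78479256 to 78511621, minus strand) also lie close together, with 20078 bases between the first pair and 128254 bases between Csf2rb and Il2rb. The others are Il2rg on chromosome X (101264385 to 101268255, minus strand), Il10ra on chromosome 9 (45253837 to 45269149, minus strand), Il6st on chromosome 13 (112464070 to 112506860, plus strand), Il9r on chromosome 11 (32187544 to 32205283, minus strand) and Ifngr1 on chromosome 10 (19591949 to 19610229, plus strand). All values below are given per gene symbol, with no split by transcript, and how reads were counted within a gene was not stated.

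RefSeq gave a start-site sequence for 7 of the 10 genes. None was available for Il2rb, Il10ra or Csf2rb, the receptor genes called by genotype below, so these were not searched for any motif. The 250 bases before the start were searched on both strands for 7 short motifs, and the share of all 32851 such windows of mouse genes that hold each motif was counted. The interferon gamma activated site TTCNNNGAA, bound by STAT dimers, was present before Csf2rb2 alone and in 7.02% of all windows. Its wider form with 4 free bases between TTC and GAA (5.85% of windows), the interferon response core of a repeated GAAA with 2 free bases between (2.98%) and the NF-kB motif of GGG and TCC with 4 free bases between (16.5%) had no match before any of the 7 genes. The octamer, the motif of the factors Oct1 and Oct2, was searched as ATGNAAAT with 1 base left free. It occurred 3 times before Il4ra and before none of the other 6 genes. Match 1 reads ATGCAAAT, and matches 2 and 3 read ATGTAAAT. It is present in 5.03% of all windows, and 12 windows (0.0365%) hold it 3 times or more. The 3 matches are shown here in 30 bases each, read 5′ to 3′ on the plus strand with the octamer in capitals.
Il4ra octamer 1, chr7:125552121-125552150: tggggtggggcATGCAAATaagccagcgat
Il4ra octamer 2, chr7:125552193-125552222: aggggcggggcATGTAAATgaccgtgcacg
Il4ra octamer 3, chr7:125552226-125552255: tggggcgtcgcATGTAAATaagggacacca

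The other motifs were the GC box GGGCGG (32.7% of windows), which was found before Il4ra, Il21r, Ifngr1 and Il6st, and the ETS motif CCGGAA (12% of windows), found before Il6st and Il2rg. For Il21r and Il9r the start in RefSeq's promoter table lies inside the gene as positioned above, so their windows (125603179 to 125603428 and 32200280 to 32200529) belong to an inner start. The windows before the gamma chain gene and before Ifngr1 are printed as the pair of highly transcribed members with unlike base composition. The Il2rg window had 3 CpG dinucleotides and 49.2% G or C, and the Ifngr1 window had 11 and 59.2%, against medians of 6 and 52.4% over all windows. Capitals mark the ETS match in the first sequence and the GC boxes in the second, both as they read on the gene's strand.
Il2rg, chrX:101268256-101268505, minus strand: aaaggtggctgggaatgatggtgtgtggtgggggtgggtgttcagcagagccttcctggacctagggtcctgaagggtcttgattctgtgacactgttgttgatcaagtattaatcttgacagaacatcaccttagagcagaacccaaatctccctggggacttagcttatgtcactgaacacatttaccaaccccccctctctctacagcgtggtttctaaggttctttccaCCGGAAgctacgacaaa
Ifngr1, chr10:19591699-19591948, plus strand: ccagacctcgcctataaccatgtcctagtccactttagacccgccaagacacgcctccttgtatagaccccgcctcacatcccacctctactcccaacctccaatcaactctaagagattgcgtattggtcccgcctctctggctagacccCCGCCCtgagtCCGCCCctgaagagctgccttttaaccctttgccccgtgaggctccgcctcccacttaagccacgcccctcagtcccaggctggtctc
A match describes these letters and shows no binding.

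Csf2rb and Csf2rb2 are near copies, and their sequences bear on how their values can be read. Csf2rb encodes the common beta chain of the receptors for GM-CSF, interleukin-3 and interleukin-5, and Csf2rb2 a second beta chain, known in mice, for interleukin-3. Over 2628 aligned coding bases 2503 were identical (95.24%), with a longest identical run of 242 bases. Of all 50-base windows of the Csf2rb2 transcript 19.02% were also present in Csf2rb, and of all 100-base windows 7.2%. The stretch of 80 coding bases where the copies differ most is shown with the 15 differing bases in capitals.
Csf2rb, coding bases 318 to 397: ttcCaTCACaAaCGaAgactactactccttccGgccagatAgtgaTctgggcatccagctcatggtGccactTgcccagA
Csf2rb2, coding bases 321 to 400: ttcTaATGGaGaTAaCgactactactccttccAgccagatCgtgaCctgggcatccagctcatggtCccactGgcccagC
The way reads shared by the copies were counted is not given in the sources used here, so a part of either value may belong to the other.

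The interleukin-21 receptor chain and the gamma chain were the most abundant of the 10 in every group. Il21r averaged 333.8 ± 22.2 TPM in mutant centrocytes and 330 ± 29.4 TPM in control centrocytes (SD, n = 5 each, as for every mean below). It averaged 171.2 ± 42.4 TPM in mutant centroblasts and 200.4 ± 18.8 TPM in control centroblasts. Each gene's level by library is drawn in the plot of TPM by group. Il2rg averaged 416.4 ± 53.0 TPM in mutant centrocytes, 330.7 ± 35.8 TPM in control centrocytes, 152.8 ± 33.0 TPM in mutant centroblasts and 153.9 ± 8.67 TPM in control centroblasts. In both centrocyte groups and in mutant centroblasts the ranges of the 2 genes overlapped, so their order there lies within the spread. Ifngr1, the ligand-binding chain of the interferon gamma receptor, and Il4ra, the chain that binds interleukin-4, came next, and their ranges overlapped in all 4 groups. Il10ra, Il9r, Csf2rb and Il2rb followed on average, but in mutant centrocytes Il9r (52.8 to 155 TPM) overlapped with both Il4ra and Ifngr1. Il6st, which encodes the signalling chain shared by receptors of the interleukin-6 family, averaged between 2.01 and 5.04 TPM in the 4 groups and lay below 1 TPM in 1 library. Il10ra and Il9r could not be ranked against each other in 3 of the groups, where their ranges overlapped, but in control centroblasts Il10ra lay above Il9r. Csf2rb and Il2rb overlapped in mutant cells of both sorts, while in controls Csf2rb lay above Il2rb. Csf2rb2 lay at 0.5725 TPM or less in every library and at 0 in 2 mutant centroblast libraries, and was not tested. The other 9 genes passed the filter on low values.

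**Figure D1:**
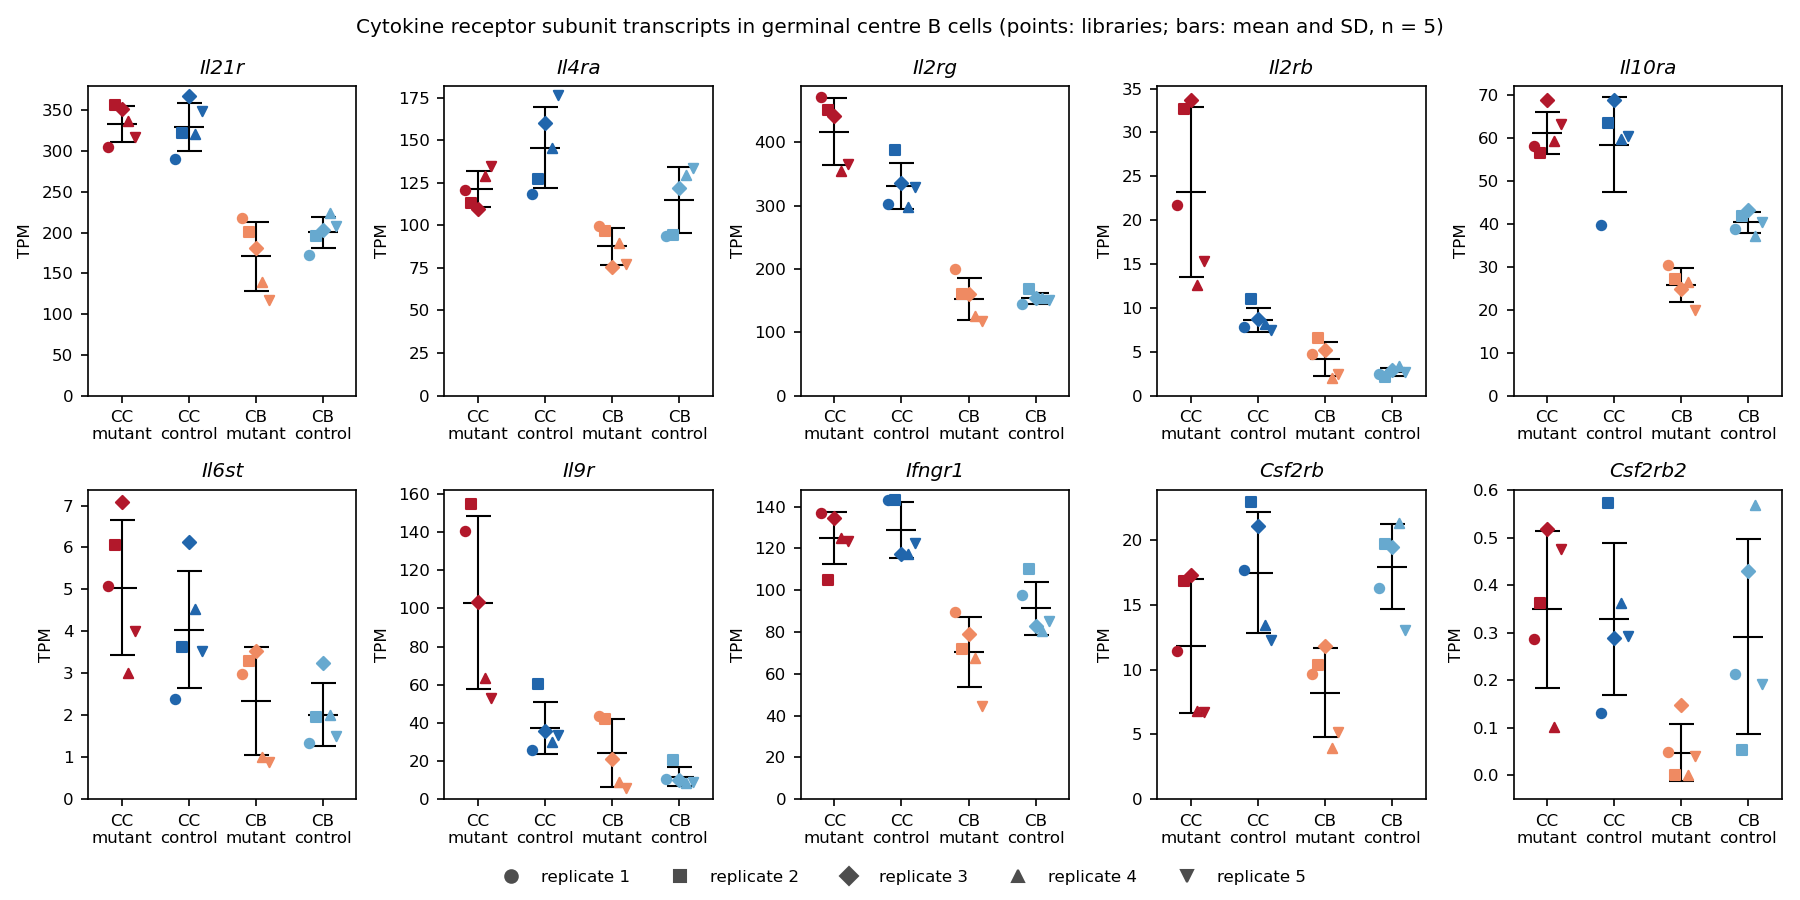
TPM of each of the 10 receptor genes (one panel a gene, linear axes) in the 5 libraries of mutant centrocytes, control centrocytes, mutant centroblasts and control centroblasts; CC are centrocytes, CB centroblasts, marker shapes give the replicate number, and bars give the mean and SD. Centrocyte points lie above centroblast points for most genes, while Csf2rb is lowest in mutant centroblasts and Il2rb and Il9r are highest in mutant centrocytes.

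**Figure D2:**
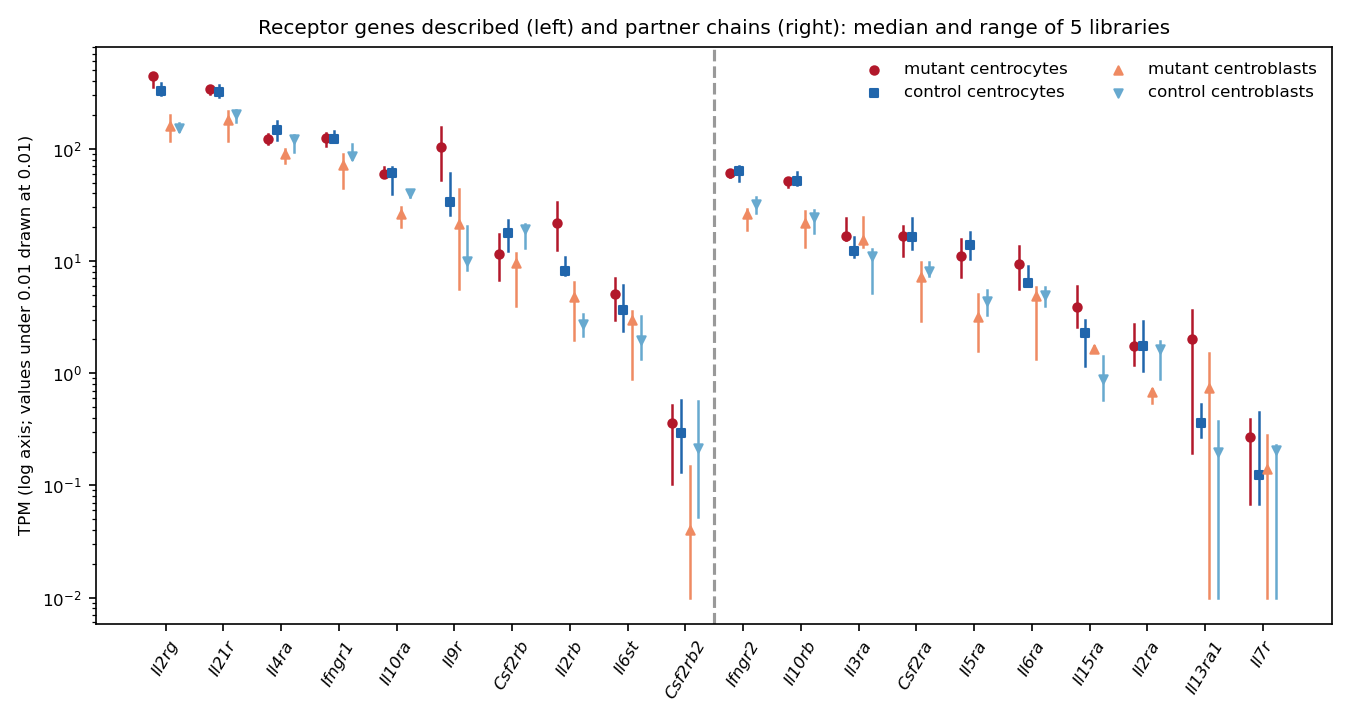
Median (point) and range (line) of TPM over 5 libraries in each group on a log axis, for the 10 receptor genes (left of the dashed line) and the partner chains they signal with (right). Il2rg and Il21r lie above 100 TPM in all groups, and Csf2rb2 and Il7r lie below 1 TPM.

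Most of the receptor genes were higher in centrocytes than in centroblasts, in both genotypes. In mutants 8 of the 9 tested genes were called higher and 0 lower, where 61.5% of all tested genes were called, 48.8% higher and 12.6% lower (5561 and 1436 genes, against 3362 and 3286 after median-of-ratios scaling). In controls 8 of 9 were called higher and 0 lower, where 30.7% of all tested genes were called, 21.2% higher and 9.48% lower (2419 and 1079 genes, against 2037 and 2009 after that scaling). The exception in both was Csf2rb. Every centrocyte library exceeded every centroblast library for 7 of the 9 genes in mutants (28.7% of all tested genes, with 7.91% lower) and for 5 of the 9 in controls (17% of all tested genes, with 9.51% lower). Over the 9 genes the median difference was 0.99 in mutants and 0.72 in controls, against medians of 0.34 and 0.14 over all tested genes. Without mutant centroblast libraries 4 and 5 the counts were 7 of 9 in mutants, where Il6st was no longer called, and 8 of 9 in controls. Over all genes 5774 were then called in either direction in mutants and 5417 in controls, against 6997 and 3498 with all libraries.

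The widest gaps between the zones were those of Il9r and Il2rb. Il9r encodes the chain that binds interleukin-9. In mutants 1 to 5 it was 141, 155, 103, 63.4 and 52.8 TPM in centrocytes, against 43.4, 41.7, 21.1, 8.72 and 5.61 TPM in centroblasts. In controls it was 25.9, 60.5, 35.9, 29.7 and 33.5 TPM in centrocytes, against 10.7, 20.3, 9.93, 8.31 and 8.89 TPM in centroblasts. The 2 sorts did not overlap in either genotype, although single libraries within a group differed widely. The difference was 2.31 ± 0.46 (SE, adjusted p = 0.000383) in mutants and 1.60 ± 0.46 (adjusted p = 0.0132) in controls. Leaving out mutant centroblasts 4 and 5, the lowest of the 5 mutants, gave 1.46 in mutants (adjusted p = 0.0054).

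Il2rb, the beta chain of the receptors for interleukin-2 and interleukin-15, was 21.7, 32.7, 33.7, 12.6 and 15.4 TPM in mutant centrocytes 1 to 5, against 4.78, 6.55, 5.14, 1.98 and 2.49 TPM in mutant centroblasts. In controls it was 7.80, 10.95, 8.75, 8.17 and 7.48 TPM in centrocytes, against 2.41, 2.16, 2.95, 3.33 and 2.73 TPM in centroblasts. Again the sorts did not overlap. The zone difference was 2.21 ± 0.25 in mutants (adjusted p = 5.49e-07) and 1.37 ± 0.25 in controls (adjusted p = 0.000347).

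The gamma chain that completes these receptors moved with them. Il2rg was 471, 450, 441.6, 354 and 365 TPM in mutant centrocytes, against 200, 161, 160.1, 125 and 117 TPM in mutant centroblasts. In controls it was 302, 388, 335, 298 and 330 TPM in centrocytes, against 144, 168, 153, 153 and 150.5 TPM in centroblasts. The sorts did not overlap in either genotype. The zone difference was 1.46 ± 0.12 in mutants (adjusted p = 5.53e-09) and 1.09 ± 0.12 in controls (adjusted p = 7.39e-07), with the smallest SE of the 9. GENCODE holds a read-through gene model on the same strand that shares exons with Il2rg, and how reads common to both were assigned is unknown.

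Il21r, whose product binds interleukin-21, was 305, 357, 352, 337.5 and 318 TPM in mutant centrocytes 1 to 5, against 218, 200.5, 181, 139 and 117 TPM in mutant centroblasts. The controls were 290.5, 322, 367, 321 and 349 TPM in centrocytes, against 172, 195.5, 203, 224 and 208 TPM in centroblasts. The sorts did not overlap in either genotype, and the difference was 0.99 ± 0.13 in mutants (adjusted p = 2.09e-06) and 0.72 ± 0.13 in controls (adjusted p = 0.000233). Its genomic neighbour Il4ra had a much smaller gap. Il4ra averaged 121.5 ± 10.6 TPM in mutant centrocytes, against 87.65 ± 11.1 TPM in mutant centroblasts, and 145.8 ± 23.7 TPM in control centrocytes, against 114.8 ± 19.4 TPM in control centroblasts. Its zone difference of 0.47 in mutants (adjusted p = 0.00254) and 0.34 in controls (adjusted p = 0.0373) compares with medians over all genes of 0.34 and 0.14. After median-of-ratios scaling, which takes that shared shift out, it was 0.12 in mutants (adjusted p = 0.476) and 0.20 in controls (adjusted p = 0.254), so neither call remained.

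Il10ra, the ligand-binding chain of the interleukin-10 receptor, was higher in centrocytes by 1.22 ± 0.13 in mutants (adjusted p = 1.32e-07) and by 0.50 ± 0.13 in controls (adjusted p = 0.00464). Its sorts overlapped in controls through centrocyte library 1 at 39.6 TPM. Ifngr1 was higher by 0.85 ± 0.14 in mutants (adjusted p = 3.70e-05) and by 0.50 ± 0.14 in controls (adjusted p = 0.00979). Ifngr1 was 137, 105, 134, 125 and 124 TPM in mutant centrocytes, against 89.5, 72.0, 79.1, 67.4 and 44.5 TPM in mutant centroblasts. Control centrocytes had 143.2, 143.3, 117.5, 117.3 and 123 TPM of it, and control centroblasts 97.6, 110.2, 82.6, 80.4 and 85.4 TPM. Its sorts did not overlap in either genotype. Il6st was higher by 0.91 ± 0.26 in mutants (adjusted p = 0.00547) and by 0.73 ± 0.26 in controls (adjusted p = 0.0398), with overlapping ranges in both. The control call was lost without any 1 of 8 libraries and with no filter (adjusted p = 0.0624), and that of Il4ra without any 1 of 5 libraries and with no filter (adjusted p = 0.0554). Csf2rb differed between the zones by 0.47 ± 0.28 in mutants (adjusted p = 0.141, 95% interval -0.11 to 1.06) and by -0.05 ± 0.28 in controls (adjusted p = 0.899, 95% interval -0.64 to 0.53). The mutant difference was called in limma fits with replicate number as a block (adjusted p = 0.0229) or as a block within genotype (adjusted p = 0.00546). What the numbers mark is not stated.

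Macrophage and monocyte genes moved with the zones as well. Of 12 such genes 9 were tested and 8 were called higher in centrocytes in each genotype. Their summed level ran from 89.4 to 221 TPM in mutant centrocytes, 113 to 235 TPM in control centrocytes, 42.3 to 86.2 TPM in mutant centroblasts and 46.2 to 65.6 TPM in control centroblasts. None of the 12 was at 0 in all libraries, and Csf1r, the receptor that defines the lineage, averaged 9.84, 13.7, 2.24 and 2.73 TPM in the same order. Genes of naive B cells also rose, all 6 of them in both genotypes, with sums of 779 to 932 TPM in mutant centrocytes, 598 to 886 TPM in control centrocytes, 111 to 240.3 TPM in mutant centroblasts and 205 to 261 TPM in control centroblasts. The part of such cells in the receptor values was not tested. Of 8 T cell genes 3 were tested (Cd3g, Cd5 and Lck), of which 1 was called higher in centrocytes in mutants and all 3 in controls. The sum of the 8 ran from 206 to 250.1 TPM in mutant centrocytes, 181 to 298 TPM in control centrocytes, 165 to 248 TPM in mutant centroblasts and 101 to 232 TPM in control centroblasts, most of it Lck (219, 223, 199 and 146 TPM on average). Cd3g reached 2.13 TPM, and Cd3e and Cd4 reached 1.37 and 0.784 TPM.

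**Figure D3:**
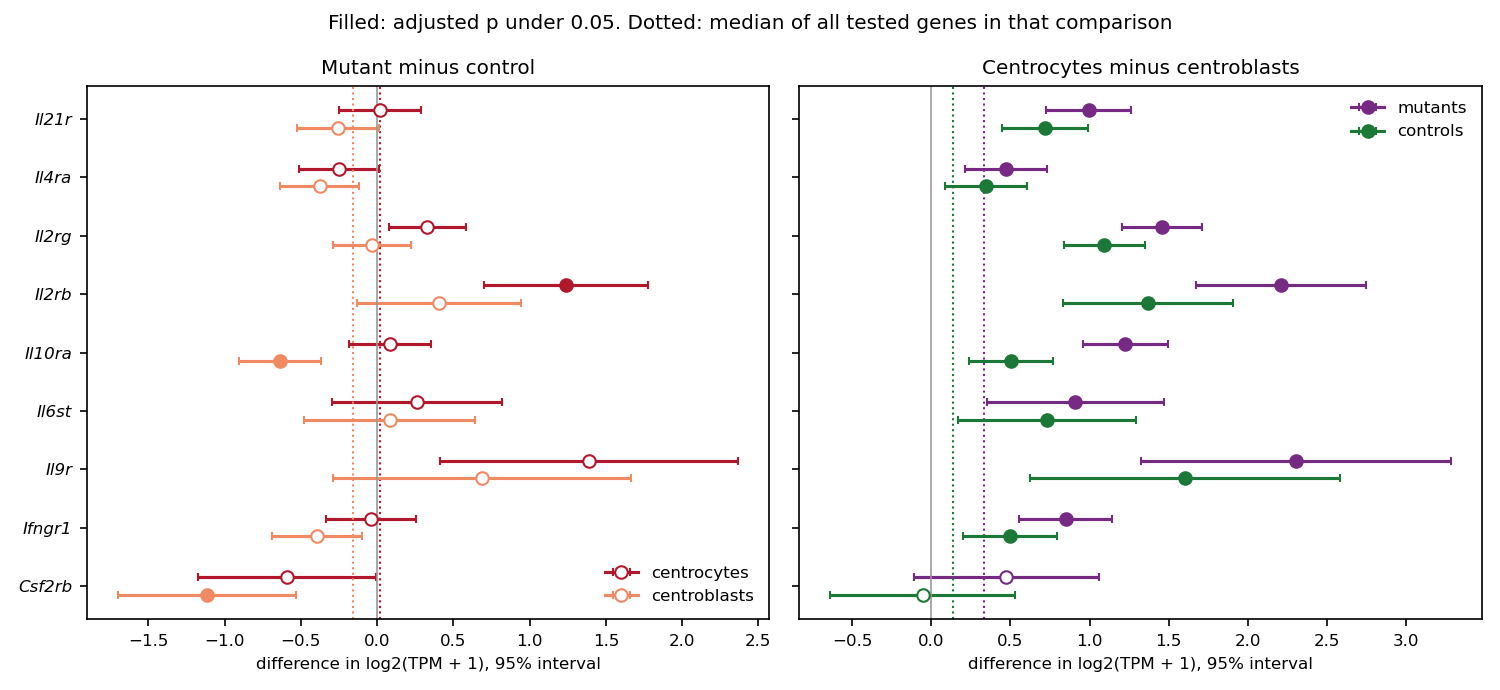
Differences in log2(TPM + 1) with 95% intervals for the 9 tested genes, mutant minus control in centrocytes and centroblasts (left) and centrocytes minus centroblasts in mutants and controls (right). Filled points have an adjusted p under 0.05 and dotted lines give the median of all tested genes; 3 genotype differences are filled, against 16 zone differences.

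The genotype comparison asked which receptors differ between mutant and control cells of the same sort. In centrocytes Il2rb was called higher in mutants and no receptor gene lower, where 1.2% of all tested genes were called, 0.896% higher and 0.307% lower. Il2rb averaged 23.2 ± 9.70 TPM in mutant centrocytes and 8.63 ± 1.38 TPM in control centrocytes. The library values given above show that all 5 mutant libraries exceeded all 5 control libraries, the lowest mutant at 12.6 TPM and the highest control at 10.95 TPM. Among all tested genes 2.63% lay higher without overlap and 1.99% lower. The difference was 1.24 ± 0.25 (adjusted p = 0.01605), or 2.36-fold on this scale. The call was lost without mutant centrocyte library 2 (1.10, adjusted p = 0.0721) or 3 (1.09, adjusted p = 0.0705) and without control centrocyte library 4 (1.23, adjusted p = 0.051). Of the 6 naive B cell genes 2 were also called higher in mutant centrocytes and 0 lower. One was Ccr7, a chemokine receptor gene, which averaged 28.3 ± 9.21 TPM in mutants and 13.3 ± 3.86 TPM in controls (adjusted p = 0.0311). NK cells also express Il2rb, and of 6 NK cell genes 2 were tested and 1 was called higher in mutant centrocytes. That gene was Prf1, which encodes perforin, at 3.26 ± 1.13 TPM in mutants and 1.22 ± 0.641 TPM in controls (adjusted p = 0.0334). The sum of the 6 ran from 3.18 to 8.32 TPM in mutant centrocytes and from 1.97 to 7.35 TPM in control centrocytes, and Ncr1, a defining NK cell gene, reached 0.602 TPM. The part of either cell type in the Il2rb difference was not tested.

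Il9r and Il2rg were also higher on average in mutant centrocytes without passing the test. Il9r averaged 103 ± 45.3 TPM in mutant centrocytes and 37.1 ± 13.6 TPM in control centrocytes. The groups overlapped through mutant library 5 at 52.8 TPM and control library 2 at 60.5 TPM, and the difference was 1.39 ± 0.46 (adjusted p = 0.21, 95% interval 0.41 to 2.37). Il2rg differed by 0.33 ± 0.12 (adjusted p = 0.264). Without mutant centroblasts 4 and 5, which enter the pooled spread, both were called (Il9r adjusted p = 0.0316, Il2rg adjusted p = 0.0428) at the same size of difference. In that fit 387 genes in all were called in centrocytes by genotype, against 137 with all libraries. Csf2rb was 11.4, 16.9, 17.3, 6.81 and 6.75 TPM in mutant centrocytes and 17.7, 23.0, 21.1, 13.4 and 12.3 TPM in control centrocytes. Its ranges overlapped, and it differed by -0.59 ± 0.28 (adjusted p = 0.489). The remaining differences in centrocytes lay between -0.25 for Il4ra and 0.26 for Il6st.

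In centroblasts 2 receptor genes were called lower in mutants, Il10ra and Csf2rb, and 0 higher, where 4.29% of all tested genes were called, 3.38% lower and 0.905% higher (385 and 103 genes, against 355 and 285 after median-of-ratios scaling). Without mutant centroblasts 4 and 5, 409 genes in all were called, against 488 with all libraries. Among the receptor genes 1 was then called lower, Il10ra, and 1 higher, Il9r. Of the 6 naive B cell genes 2 were called lower in mutant centroblasts and 0 higher. They were Klf2, a transcription factor gene (16.4 ± 5.08 TPM in mutants and 38.9 ± 9.77 TPM in controls, adjusted p = 0.002), and Fcer2a, and 1 of the 6 was called lower without libraries 4 and 5. The list's sums are given above, and the part of such cells in the receptor differences was not tested. Il10ra was 30.4, 27.2, 24.8, 26.4 and 19.9 TPM in mutant centroblasts and 38.8, 41.8, 43.2, 37.1 and 40.5 TPM in control centroblasts. The groups did not overlap, as was the case for 2.99% of all tested genes in this direction and 0.755% in the other. Il10ra fell by 0.64 on the log2 scale (SE 0.13, adjusted p = 0.00912), and by 0.48 relative to the median of all genes, which was itself -0.16. It stayed called without each library in turn and without both mutant libraries 4 and 5 (-0.54, adjusted p = 0.0198). When only the 10 centroblast libraries entered the fit it was no longer called (adjusted p = 0.0723). In centrocytes Il10ra was 58.0, 56.4, 68.7, 59.2 and 63.2 TPM in mutants and 39.6, 63.5, 68.9, 59.7 and 60.5 TPM in controls, a difference of 0.08 ± 0.13 (adjusted p = 0.9998).

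Csf2rb was 9.67, 10.4, 11.8, 3.98 and 5.16 TPM in mutant centroblasts and 16.3, 19.7, 19.45, 21.3 and 13.1 TPM in control centroblasts. All mutant libraries lay below all controls, and libraries 4 and 5, the ones that stand apart in composition, were the lowest. The difference was -1.12 ± 0.28 (adjusted p = 0.0286), or -0.96 relative to the median of all genes. Without those 2 libraries it was -0.69 (adjusted p = 0.189), and without 4 or 5 alone -0.92 (adjusted p = 0.0791) or -0.995 (adjusted p = 0.0678). Leaving out control centroblast library 2, 3 or 4 also ended the call, with adjusted p-values of 0.0751, 0.0585 and 0.068. Csf2rb2, which shares sequence with it, was 0.0489, 0, 0.147, 0 and 0.0403 TPM in mutant centroblasts and 0.213, 0.0525, 0.431, 0.57 and 0.193 TPM in control centroblasts, values too low for a test.

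The other 7 tested genes were not called in centroblasts. Il4ra (-0.38, adjusted p = 0.0719), Ifngr1 (-0.39, adjusted p = 0.0856) and Il21r (-0.26, adjusted p = 0.173) were lower on average in mutants. All 3 were called lower once mutant centroblast library 1 was left out (adjusted p = 0.0209, 0.0152 and 0.0351), where 3102 genes in all were called against 488 with all libraries. Without mutant libraries 4 and 5, Il4ra differed by -0.33 (adjusted p = 0.225), Il21r differed by -0.0013 (adjusted p = 0.997), and Ifngr1 by -0.18 (adjusted p = 0.495). Il9r averaged 24.1 ± 17.8 TPM in mutant centroblasts and 11.6 ± 4.93 TPM in control centroblasts, a difference of 0.69 ± 0.46 (adjusted p = 0.304). It was called higher without mutant libraries 4 and 5 (1.53, adjusted p = 0.0391). Il2rb differed by 0.40 ± 0.25 (adjusted p = 0.27), Il2rg by -0.03 ± 0.12 (adjusted p = 0.858) and Il6st by 0.08 ± 0.26 (adjusted p = 0.85).

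Whether the genotype difference itself differed between centrocytes and centroblasts was tested for each gene. By limma 0 of the 9 receptor genes were called, where 2 of all tested genes (0.0176%) were. At an unadjusted p under 0.05 there were 3 of the 9, Il10ra, Il2rb and Il2rg, where 11.6% of all tested genes were. The difference between the 2 differences was 0.72 ± 0.18 for Il10ra (adjusted p = 0.322), 0.84 ± 0.36 for Il2rb (adjusted p = 0.403) and 0.36 ± 0.17 for Il2rg (adjusted p = 0.403). The median over all tested genes was 0.18. After median-of-ratios scaling the values were 0.51 for Il10ra (adjusted p = 0.444), 0.67 for Il2rb (adjusted p = 0.463) and 0.15 for Il2rg (adjusted p = 0.567). In a limma fit with replicate number as a block within genotype, the adjusted p was 0.0825 for Il10ra, 0.0756 for Il2rb and 0.171 for Il2rg. In that fit 14 of all tested genes were called. So the call of Il10ra in centroblasts and that of Il2rb in centrocytes are not shown to belong to 1 cell type.

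In both sorts the SD in TPM was larger in mutants than in controls for Il9r, Il2rb, Il2rg and Il6st, and slightly so for Csf2rb. In centrocytes it was larger in controls for Il10ra (4.93 TPM in mutants and 11.1 TPM in controls), Il4ra, Il21r and Ifngr1. In centroblasts it was larger in controls for Il4ra. These spreads were not tested against each other. The low mutant libraries of the first 5 genes carried the same numbers in both sorts. Mutant libraries 4 and 5 had the lowest Il9r, Il2rb, Il2rg, Csf2rb and Il6st of the 5 mutants in centrocytes and again in centroblasts. For Il9r the 5 mutant centrocytes ranged from 52.8 to 155 TPM and the 5 control centrocytes from 25.9 to 60.5 TPM. Among controls, library 2 had the highest Il9r and the highest Il2rg in both sorts. The labels do not say whether libraries with the same number share a mouse. In centrocytes, mutant libraries 4 and 5 did not stand apart in ribosomal protein genes, at 6.993% and 7.696%.

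**Figure D4:**
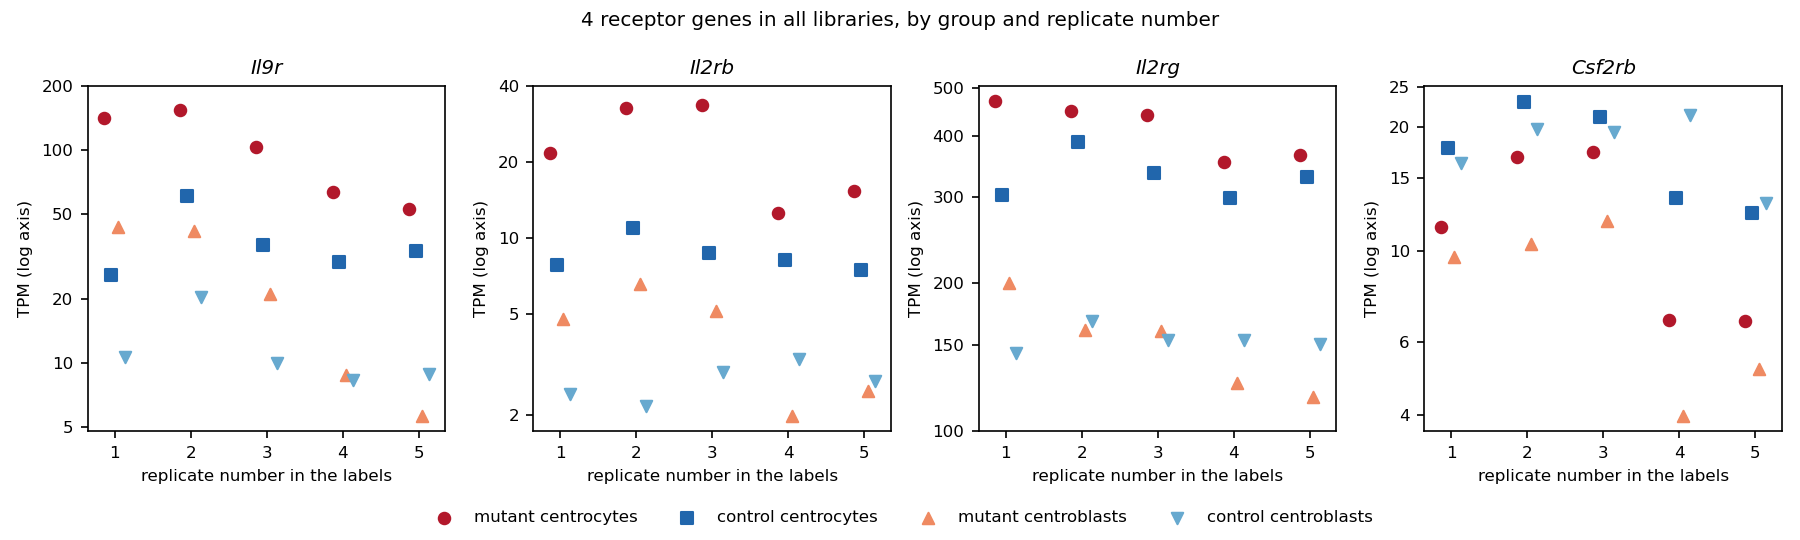
TPM on log axes of Il9r, Il2rb, Il2rg and Csf2rb by replicate number, with a symbol for each of the 4 groups. In mutant centrocytes and in mutant centroblasts, numbers 4 and 5 hold the lowest values of all 4 genes; whether equal numbers mark the same animal is not stated.

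The chains that pair with these receptors were present too. Il10rb, the second chain of the interleukin-10 receptor, averaged 50.9 ± 3.08 TPM in mutant centrocytes, 54.5 ± 6.54 TPM in control centrocytes, 21.3 ± 5.17 TPM in mutant centroblasts and 24.4 ± 4.67 TPM in control centroblasts. Ifngr2, the signalling partner of Ifngr1, averaged 60.3 ± 3.34, 62.0 ± 7.23, 25 ± 4.23 and 32.1 ± 3.92 TPM in the same order. Both were called higher in centrocytes in both genotypes (Il10rb 1.26 in mutants and 1.14 in controls, Ifngr2 1.25 and 0.93) and in neither genotype comparison. Thus the fall of Il10ra in mutant centroblasts had no called counterpart in Il10rb, although this difference between the 2 chains was not tested.

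The specific chains that share the common beta chain were Csf2ra, Il3ra and Il5ra. Il3ra, which binds interleukin-3, averaged 16.9 ± 4.54 TPM in mutant centroblasts and 10.2 ± 3.01 TPM in control centroblasts and was called higher there (0.70 ± 0.20, adjusted p = 0.047), opposite in sign to Csf2rb. In centrocytes it averaged 17.8 ± 3.67 TPM in mutants and 12.6 ± 2.23 TPM in controls (adjusted p = 0.404). The centroblast call of Il3ra was lost without mutant centroblasts 4 and 5 and with the centroblast libraries alone. Csf2ra averaged 15.97, 16.96, 6.82 and 8.29 TPM and Il5ra 11.5, 14.2, 3.45 and 4.46 TPM in mutant centrocytes, control centrocytes, mutant centroblasts and control centroblasts. Both were called higher in centrocytes in both genotypes, unlike Csf2rb, which was called in neither in the fit without replicate blocks.

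The alpha chains of the receptors that use Il2rb were low. Il15ra averaged 3.89 ± 1.42 TPM in mutant centrocytes and 2.09 ± 0.742 TPM in control centrocytes (0.65, adjusted p = 0.12), and 1.65 ± 0.0693 TPM in mutant centroblasts and 0.977 ± 0.318 TPM in control centroblasts (0.44, adjusted p = 0.134). Il2ra averaged 1.88 TPM in both centrocyte groups, 0.656 TPM in mutant centroblasts and 1.52 TPM in control centroblasts. Il6ra, which works with Il6st, averaged 9.47, 7.09, 3.82 and 4.79 TPM in the order used above, and Il13ra1, which can pair with Il4ra, 2.03, 0.381, 0.739 and 0.186 TPM. Il7r, the partner of the gamma chain in the interleukin-7 receptor, lay at 0.4476 TPM or less in every library.

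Of 23 other cytokine receptor chains 16 were tested. In the zone comparison 14 were called higher in mutants and 10 in controls, and 0 lower in either. Over all tested genes the shares called higher were 48.8% and 21.2%. By genotype, 1 was called higher (Il3ra) and 1 lower in centroblasts (Il17ra, the interleukin-17 receptor chain, 111 ± 31.8 TPM in mutants and 164 ± 22.8 TPM in controls, -0.60, adjusted p = 0.0293). Neither call remained without mutant centroblasts 4 and 5 (0 of 16 chains called) or with the centroblast libraries alone (0 of 13 tested). In centrocytes 0 of the 16 were called. Il27ra, the specific chain of the interleukin-27 receptor, which signals with Il6st, had the largest zone difference of those called (2.05 in mutants and 1.79 in controls).

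Of 15 JAK, STAT and SOCS genes 14 were tested, with 11 called higher in centrocytes and 0 lower in mutants and 7 higher and 1 lower in controls. Over all tested genes 48.8% were called higher in mutants and 21.2% in controls. Jak3, the kinase that binds the gamma chain, differed between the zones by 1.02 in mutants (adjusted p = 1.33e-05) and by 1.004 in controls (adjusted p = 4.30e-05). Jak3 averaged 54.5 ± 5.93 TPM in mutant centrocytes and 43.4 ± 4.37 TPM in control centrocytes (0.32, adjusted p = 0.498). Stat6, which serves interleukin-4, was higher in centrocytes by 0.73 in mutants and 0.47 in controls, and Socs3, a target of STAT3, by 1.44 and 1.09. By genotype, Stat5b alone was called, lower in mutant centroblasts (46.4 ± 11.3 TPM) than in control centroblasts (68.4 ± 9.48 TPM) at -0.58 ± 0.13 (adjusted p = 0.0213). Without mutant centroblasts 4 and 5, 2 genes of the list were called higher and 1 lower in mutant centroblasts and 2 higher in mutant centrocytes. With the centroblast libraries alone none was called in that sort, and with the centrocyte libraries alone 1 was called higher in mutants. Stat5b was also the 1 gene called lower in control centrocytes against control centroblasts.

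Genes known to respond to these cytokines were counted in the same way, where 48.8% of all tested genes were called higher in centrocytes in mutants and 21.2% in controls. The interleukin-4 and STAT6 list had 7 tested genes. Of these 6 were called higher in centrocytes in each genotype (3 in mutants and 4 in controls after median-of-ratios scaling). By genotype 1 was called, Fcer2a, which encodes CD23, at 76.3 ± 24.3 TPM in mutant centroblasts and 112.4 ± 13.0 TPM in control centroblasts (-0.60, adjusted p = 0.0288). No gene of that list was called by genotype in centroblasts without mutant libraries 4 and 5, with median-of-ratios scaling or with the centroblast libraries alone. Of 7 tested genes of the interleukin-21 and STAT3 list, 5 were called higher in centrocytes in each genotype and 1, Pim1, lower in controls. Batf, a partner of AP-1 factors, was the 1 gene of that list called by genotype, higher in mutants in both sorts. It averaged 104 ± 16.8 TPM in mutant centrocytes and 62.3 ± 5.27 TPM in control centrocytes (0.72, adjusted p = 0.00516), and 54.1 ± 12.2 TPM in mutant centroblasts and 29.2 ± 2.62 TPM in control centroblasts (0.85, adjusted p = 0.0013). Without mutant centroblasts 4 and 5 the list had 3 genes called higher in mutant centrocytes and 2 in mutant centroblasts. Of 7 tested genes of the interleukin-2 and STAT5 list, 5 were called higher in centrocytes in mutants and 4 in controls, with 1 lower in controls. None of those 7 was called by genotype in the full fit, although 1 was in centroblasts and 2 were in centrocytes without mutant centroblasts 4 and 5.

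The interferon gamma list had the most genotype calls of the response lists by number. It was also the longest of them, with all 20 genes tested, against 7 tested in each of the others. Of the 20, 6 were called higher in mutant centrocytes and 0 lower, where 0.896% of all tested genes were called higher. The median difference of the list was 0.72 against 0.02 over all genes. The 6 called were Gbp7, Iigp1, Cxcl10, Gbp2, Igtp and Tbx21. Cxcl10, a chemokine gene, averaged 18.1 ± 12.2 TPM in mutant centrocytes and 2.35 ± 1.85 TPM in control centrocytes (2.42, adjusted p = 0.0126). In centroblasts, where 0.905% of all tested genes were called higher in mutants, 2 of the list were, Tbx21 (1.54, adjusted p = 0.0168) and Psmb9 (0.39, adjusted p = 0.0403). The list median there was 0.29 against -0.16 over all genes. The counts called higher were 13 in centrocytes and 8 in centroblasts without mutant centroblasts 4 and 5, and 9 and 7 with median-of-ratios scaling. With only the libraries of the sort compared they were 10 of 20 in centrocytes and 0 of 17 tested in centroblasts. Ifngr1 and Ifngr2 were themselves not called by genotype in either sort.

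Of 17 ligand genes 4 passed the filter and 13 were low. Ifng reached 1.625 TPM and Il4 1.347 TPM in single libraries. Il2, Il3 and Il9 were at 0 in all 20 libraries, and Il21 lay at or below 0.147 TPM. Clcf1, a ligand of the interleukin-6 family, averaged 29.6 ± 6.50 TPM in mutant centrocytes, 41.5 ± 12.7 TPM in control centrocytes, 6.56 ± 2.48 TPM in mutant centroblasts and 12 ± 1.90 TPM in control centroblasts. It was called lower in mutant centroblasts (-0.84, adjusted p = 0.0432), a call lost without mutant libraries 4 and 5 and with the centroblast libraries alone. Il10 averaged 11.6 ± 6.03, 11.3 ± 10.1, 5.23 ± 3.46 and 3.71 ± 2.21 TPM in the same order, and was called higher in centrocytes in both genotypes.

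Finally, the genes whose profile over the 20 libraries lay nearest to each receptor were read off among 10156 genes. Profiles were log2 values scaled to mean 0 and SD 1, and the measure was the root mean square distance, where 0 is identity. Il2rg lay nearest to Ift140 (0.137), Il21r to Man2b1 (0.16) and Mogs (0.161), and Il2rb to Gbp7 (0.2). Among the 2 genes nearest to Il9r was Mpeg1 (0.251). Il10ra lay nearest to Ampd3 (0.241) and Slc37a2 (0.254), and Ifngr1 to Stt3b (0.273) and Casd1 (0.274). Il6st lay nearest to Grn (0.313) and Ankrd33b (0.347), Il4ra to Mxd4 (0.351) and Spns2 (0.354), and Csf2rb to Ift172 (0.583) and Ap4b1 (0.602). Csf2rb was thus the receptor with the most distant neighbour. Among the receptors themselves the closest pair was Il21r and Il2rg (0.365), followed by Il9r and Il2rb (0.379) and by Il2rg and Il2rb (0.383). These likenesses are descriptions across libraries that share their group structure.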

How the data were processed

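Total RNA of 20 sorted libraries was made into stranded mRNA libraries, per the labels' protocols. The deposited files give TPM per gene symbol, scaled by the authors to 1000000 per library. The submitters' processing notes name STAR and build mm10. STAR's version, the annotation and the counting tool were not given in the sources used here. No pair of files was identical (highest r 0.9966). The labels' sort and genotype set the groups.

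Genes were compared with limma 3.58.1 in R 4.3.3 (trend and robust, two-sided) on log2(TPM + 1) with 4 group means over 20 libraries (16 residual degrees of freedom), on genes with at least 1 TPM in 5 libraries. Adjusted p-values were Benjamini-Hochberg over all 11386 genes. The fit was tested on simulated data. The 10 genes, the gene lists and the tests were chosen with earlier results of these data known. The genes named were these 10, the 2 nearest profiles of each (some are not reported here), partner chains and up to 4 called genes a list and comparison, with Jak3, Stat6, Socs3, Igtp, Tbx21, Ccr7, Il2, Il3, Il9, Il21, Ifng, Il4, Klf2, Prf1, Ncr1, Cd3g, Cd5, Lck, Csf1r, Cd3e, Cd4 and Cd79a chosen after their values were seen. Alternatives were another pseudocount, other filters, median-of-ratios scaling, fits of 2 groups, no trend or robust step, replicate blocks, and leaving out libraries. Replicate numbers were taken as pairs only if all same-numbered pairs correlated over 0.1 (deviations from group means). In centrocytes against centroblasts 4 of 5 pairs did so in mutants (-2.93e-05 to 0.269) and 4 of 5 in controls (-0.0168 to 0.259), so they were not used as pairs. The mean correlation of same-numbered pairs was 0.175 in mutants and 0.162 in controls. For pairs of unlike number it was -0.0433 and -0.0404.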

Additional observations from a re-analysis of the deposited data

Results flagged for a closer look

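Among 40 groups of 5 libraries (10 genes in 4 groups), 2 held a library far from the others, judged by its gap to the nearest library over the group's range. Chance alone marks about 1 group in 20. Both were control library 2 for Il9r. It stood at 60.48 TPM in control centrocytes, where the other 4 lay between 25.9 and 35.9 TPM (gap 0.71 of the range), and at 20.28 TPM in control centroblasts, where the other 4 lay between 8.31 and 10.7 TPM (gap 0.804 of the range). The mutant groups of Il9r spread more evenly and held no such library. Without control centrocyte library 2 the genotype difference of Il9r in centrocytes was 1.58 (adjusted p = 0.161), against 1.39 (adjusted p = 0.21) with it.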

How the results depend on the processing

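In the alternatives that left out no single library, 352 single-gene values kept direction and call, 9 lost and 6 gained a call, and 6 changed sign. With 1 library left out these numbers were 861, 21, 3 and 15. Causes were not tested. TPM holds no depth, so the counting error of low genes is unknown.

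In centroblasts by genotype, 488 genes and 2 receptor genes were called. With no filter they were 270 and 1 (Csf2rb adjusted p = 0.0545), with only the 10 centroblast libraries 27 and 0, and with replicate number as a block 793 genes. The Il2rg difference turned to 0.1501 with median-of-ratios scaling and to 0.1678 without mutant centroblasts 4 and 5. In centrocytes, 137 genes and 1 receptor gene were called. The gene count was 83 with a pseudocount of 0.1, 84 with a filter of 5 TPM, 302 with only the 10 centrocyte libraries and 387 without mutant centroblasts 4 and 5, where 3 receptor genes were called. With the replicate block it was 242, with 2 receptor genes, the added one being Il9r (adjusted p = 0.0141). Il21r turned to -0.009785 with median-of-ratios scaling.

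For the difference between the genotype effects, the 2 genes called became 0 with median-of-ratios scaling, 0 without the trend and robust steps, 0 with the replicate block, 4 without mutant centroblasts 4 and 5 and 14 with the block within genotype. Il4ra turned to -0.08537 with the scaling, and Il6st to -0.2717 and Il9r to -0.1441 without mutant centroblasts 4 and 5. Between zones in controls, 5417 genes were called without those libraries, against 3498 with them, and Il4ra and Il6st lost their calls with no filter (adjusted p = 0.0554 and 0.0624). Csf2rb was called higher in mutant centrocytes than in mutant centroblasts with the replicate block (adjusted p = 0.0229) and with the block within genotype (adjusted p = 0.00546). Neither block changed another receptor call between zones or for the difference between the genotype effects. Median-of-ratios scaling moved the split of genes called higher and lower to 285 and 355 in centroblasts, 3362 and 3286 between zones in mutants and 2037 and 2009 between zones in controls.

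With 1 library left out, the genes called numbered 147 to 3102 in centroblasts by genotype, 44 to 238 in centrocytes by genotype and 0 to 7 for the difference. The receptor genes called numbered 1 to 5 in centroblasts, 0 to 1 in centrocytes and 6 to 8 between zones in controls. The values that changed sign were, by genotype in centroblasts, Il2rg (-0.1379 to 0.05299) and Il6st (-0.05402 to 0.2625). In centrocytes they were Il21r (-0.02613 to 0.05835), Il10ra (-0.04805 to 0.148) and Ifngr1 (-0.07571 to 0.0191). Il6st did so for the difference (-0.001098 to 0.318) and Csf2rb between zones in controls (-0.1567 to 0.05549). Between zones in controls, Il4ra (0.2718 to 0.4146) lost its call without any 1 of 5 libraries and Il6st (0.5951 to 0.863) without any 1 of 8.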
